A study of Mus musculus with 11 samples.

Results

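A set of 10 genes that place lymphocytes in lymphoid tissue were followed across the 11 libraries: the chemokines Ccl19, Ccl21a and Cxcl13, their receptors Ccr7 and Cxcr5, the lymphotoxin genes Lta and Ltb with the receptor gene Ltbr, the B cell survival factor gene Tnfsf13b and the addressin gene Madcam1. They were chosen by name, so that the set holds 10 of the 22196 genes that the transcript tables cover. Of these 10 genes, 5 (Ccl21a, Ltb, Ltbr, Tnfsf13b and Madcam1) passed the filter on low counts and 5 (Ccl19, Cxcl13, Ccr7, Cxcr5 and Lta) did not. RNA came from inguinal mammary glands of mice collected 16 days after delivery, with a normal chow diet and an age label of PND16.5. Whether the sampled animals were the dams themselves is not written in the labels. The 6 Knockout libraries carry the genotype Tsc1-fl/fl; Adipoq-Cre-Tg/+, and the 5 Wild-Type libraries carry Tsc1-fl/fl; Adipoq-Cre-+/+, so both groups have the floxed Tsc1 alleles and only the Knockout group has the Cre transgene. The Adipoq promoter drives Cre in adipocytes, while RNA was taken from whole glands with all their cell types. Each library is treated as 1 sample. The labels do not say outright that libraries came from separate animals, and p-values measure the spread between these samples.

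In lymph nodes and other lymphoid tissue, stromal cells make CCL19 and CCL21, which attract T cells and dendritic cells through CCR7, and CXCL13, which attracts B cells through CXCR5. Lymphotoxin alpha and lymphotoxin beta form a membrane complex on lymphocytes and lymphoid tissue inducer cells. This complex signals through the lymphotoxin beta receptor on stromal cells, by way of the non-canonical NF-kB pathway, and maintains chemokine and addressin expression there. MAdCAM-1 is the ligand of the integrin alpha4 beta7, by which lymphocytes enter the gut, and the inguinal mammary fat pad of the mouse contains a lymph node.

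The libraries held between 25817975 and 37894237 estimated reads. Tsc1 itself was at 8.31 to 11.9 CPM (TMM-scaled counts, expressed for libraries of equal size) in the Knockout libraries and at 9.55 to 12.2 CPM in the Wild-Type libraries, and the groups overlapped. The fitted difference was -0.09 ± 0.11 on the log2 scale (SE; adjusted p = 0.772 in edgeR), so whole-gland RNA gave no check of the deletion labels. Summed over Csn2, Wap, Lalba, Csn1s1 and Csn3, the milk protein genes reached 340053 to 477022 CPM in the Knockout group, against 421989 to 593422 CPM in the other group. Summed levels of Adipoq, Plin1, Fabp4, Cfd and Lep, markers of adipocytes, were 946.2 to 1557 CPM for Knockout, against 578.9 to 904.0 CPM for Wild-Type. Milk epithelium and fat cells were thus both represented in every library.

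Because Ccl21a and Ccl19 have near-identical copies, the bases that set them apart are shown first. In the annotation of chromosome 4 (GRCm38), Ccl21a lies at chr4:42772860-42773993 on the minus strand, and Ccl21b, Gm10591, Gm13304 and Gm21541 have coding sequences of the same 402 bases with 2 differences, T84A and C194T (Ccl21a's base first, positions counted from 1 at the start of the coding sequence). The stretches around both positions are printed below with the differing base in capitals.
Ccl21a, coding bases 71 to 97: gtgatggagggggTcaggactgctgcc
Ccl21b, coding bases 71 to 97: gtgatggagggggAcaggactgctgcc
Ccl21a, coding bases 181 to 207: gcaatcctgttctCaccccggaagcac
Ccl21b, coding bases 181 to 207: gcaatcctgttctTaccccggaagcac
Of the 372 words of 31 bases in the Ccl21a coding sequence, 310 (83.3%) also occur in these copies, so only reads that cover a differing base can separate them. Ccl19 (chr4:42754525-42756577, minus strand) shares 295 of its 360 words (81.9%) with Gm2564. The other 8 genes share no such word with another gene. Where several transcripts annotated on chromosomes have an identical coding sequence, the deposited tables list 1 of them in 6440 of 6481 such sets. For Ccl21a and Ccl19 the entries that hold all or nearly all of the reads are annotated on the unplaced scaffold JH584294.1 (ENSMUSG00000095320, bases 121048 to 121713, and ENSMUSG00000094661, bases 102539 to 104139), and the values below are theirs. The chromosome 4 transcript of Ccl21a and the Ccl19 transcript there with a coding sequence of 327 bases are not among the listed ones. Another Ccl19 transcript of chromosome 4, with 351 coding bases, is listed and had 3 reads in Wild-Type 2, where the scaffold entry had 86, and 0 in the other libraries. The scaffold sequences were not used here, so the bases printed above are those of the chromosome 4 genes and were not compared with the listed scaffold entries of Ccl21a, Ccl21b and Ccl19.

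The chemokine genes were low in most libraries and higher in a few. Ccl21a stood at 2.66, 0.00, 0.17, 0.15, 0.33 and 0.34 CPM in Knockout 1 to 6 and at 0.11, 14.1, 0.35, 4.77 and 22.5 CPM in Wild-Type 1 to 5. Wild-Type 5, 2 and 4 and Knockout 1 were high, the other 7 libraries were at 0.346 CPM or less, and the groups overlapped. The means were 0.609 ± 1.02 CPM for Knockout (SD, n = 6) against 8.35 ± 9.71 CPM for Wild-Type (SD, n = 5), with a log2 fold change of -3.66 ± 1.29 (SE) and an adjusted p of 0.332 in edgeR's quasi-likelihood test, which does not pass the threshold of 0.05. The estimated reads behind these levels ran from 0 in Knockout 2 to 640 in Wild-Type 5. In bulk RNA, fewer cells of a type and less RNA per cell cannot be told apart, here and in all the results that follow.

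The copy Ccl21b, listed on the scaffold GL456350.1, had estimated reads in 2 libraries. Gm10591, Gm13304 and Gm21541 carry the same 2 differences and are not among the listed genes, so reads given to Ccl21b may come from any of these copies. In Wild-Type 2, 31 of 368 reads of Ccl21a and Ccl21b together were on Ccl21b (8.42%, 95% Wilson interval 6.00 to 11.7%). In Wild-Type 4 it was 9 of 166 (5.42%, interval 2.88 to 9.98%). Wild-Type 5 had the most Ccl21 reads and 0 of 640 on Ccl21b, which by a limit of 3 counts allows a share of up to 0.469% (Wilson upper bound 0.597%), and Knockout 1 had 0 of 120, which allows up to 2.5% (Wilson upper bound 3.10%). These intervals and limits cover counting error only, count every read of both entries and treat the quantifier's estimates as counts. Only reads that cover a differing base can separate the copies, and their number is not known. The intervals thus understate the counting error. By them, the share in Wild-Type 5 lay below those in Wild-Type 2 and 4, while the intervals of the latter pair overlapped. Whether the shares differed between libraries cannot be settled from these counts.

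Ccl19 was read in 5 of 11 libraries. It stood at 0.78 and 0.03 CPM in Knockout 1 and 2, at 0 in Knockout 3 to 6, at 3.59, 1.276 and 5.41 CPM in Wild-Type 2, 4 and 5, and at 0 in Wild-Type 1 and 3. The same 4 libraries were high as for Ccl21a, and each group held libraries without a read. The means were 0.135 ± 0.315 CPM for Knockout (SD, n = 6) against 2.05 ± 2.38 CPM for Wild-Type (SD, n = 5), and an exact two-sided permutation test over the 462 arrangements of the genotype labels gave p = 0.121. The smallest p this design allows is 0.00433.

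Cxcl13 (chr5:95956951-95961068, plus strand), the B cell attractant, was at 0.49, 0.03, 0, 0, 0 and 0.03 CPM in Knockout 1 to 6 and at 0, 2.13, 0.09, 1.21 and 3.47 CPM in Wild-Type 1 to 5. High values again lay in Wild-Type 5, 2 and 4, then in Knockout 1. The Knockout mean of 0.0918 ± 0.195 CPM (SD, n = 6) compared with 1.38 ± 1.46 CPM in Wild-Type (SD, n = 5), with an exact permutation p of 0.0563.

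The receptors followed the same libraries as their ligands. Ccr7 (chr11:99144196-99155077, minus strand) was at 0.82, 0.10, 0.07, 0.06, 0.04 and 0.03 CPM in Knockout 1 to 6 and at 0.07, 1.96, 0.06, 1.18 and 4.95 CPM in Wild-Type 1 to 5. Every library had at least 1 read of Ccr7, but in 7 of them there were 1 to 3 reads. Its means were 0.186 ± 0.313 CPM (SD, n = 6) and 1.65 ± 2.01 CPM (SD, n = 5), with an exact permutation p of 0.0606. Cxcr5 (chr9:44511787-44561877, minus strand) was at 0.36, 0, 0, 0, 0 and 0.03 CPM in the Knockout libraries and at 0, 1.13, 0.03, 0.49 and 1.54 CPM in the Wild-Type libraries. Its highest Knockout value, in Knockout 1, was above 2 of the 5 Wild-Type values. The means of Cxcr5 were 0.0640 ± 0.143 CPM (SD, n = 6) and 0.638 ± 0.682 CPM (SD, n = 5), and the exact permutation p was 0.0563.

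Both lymphotoxin subunit genes lie in the same stretch of chromosome 17, with Ltb at chr17:35194439-35196320 on the plus strand and Lta at chr17:35203165-35205351 on the minus strand. Ltb, which anchors the complex in the membrane, was at 3.75, 0.34, 1.09, 0.60, 1.03 and 0.43 CPM in Knockout 1 to 6 and at 1.19, 13.7, 1.13, 6.26 and 22.6 CPM in Wild-Type 1 to 5. Wild-Type 5, 2 and 4 and Knockout 1 were the highest here too, while the other 7 libraries ranged from 0.341 to 1.19 CPM and overlapped between genotypes. The log2 fold change of Ltb was -2.84 ± 0.89 (SE), between means of 1.21 ± 1.285 CPM for Knockout (SD, n = 6) against 8.96 ± 9.17 CPM for Wild-Type (SD, n = 5), with an edgeR adjusted p of 0.294. DESeq2 gave an adjusted p of 0.0658, the smallest that Ltb had under any setting tried.

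Lta, whose product is also secreted without lymphotoxin beta, had 2 to 27 reads per library. It was at 0.27, 0.24, 0.26, 0.27, 0.07 and 0.28 CPM in Knockout 1 to 6 and at 0.14, 0.71, 0.31, 0.49 and 0.95 CPM in Wild-Type 1 to 5. Knockout 1 was not set apart for Lta: its 4 highest libraries were Wild-Type 5, 2, 4 and 3. Means of 0.233 ± 0.0796 CPM (SD, n = 6) and 0.520 ± 0.319 CPM (SD, n = 5) gave an exact permutation p of 0.0693. Without Wild-Type 1 the exact permutation p of Lta was 0.00952, and it ranged up to 0.152 when other libraries were left out singly.

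Ltbr (chr6:125306571-125313885, minus strand), the receptor gene that stromal and epithelial cells express, had the narrowest span of values for its level. It was at 24.7, 26.5, 23.5, 25.8, 28.9 and 26.4 CPM in Knockout 1 to 6 and at 27.1, 28.2, 25.8, 24.2 and 22.5 CPM in Wild-Type 1 to 5. No library stood apart, and the high and low values were mixed between genotypes. The fitted difference was 0.02 ± 0.08 on the log2 scale (SE; adjusted p = 0.935 in edgeR), a sign that reversed when Knockout 5 or Wild-Type 5 was left out. Its means were 25.98 ± 1.85 CPM (SD, n = 6) and 25.6 ± 2.27 CPM (SD, n = 5).

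Tnfsf13b (chr8:10006467-10039072, plus strand) encodes BAFF, which supports B cell survival and is made mainly by myeloid and stromal cells. It was at 0.69, 0.55, 0.63, 0.54, 0.99 and 0.63 CPM in Knockout 1 to 6 and at 0.67, 0.50, 0.85, 0.73 and 1.26 CPM in Wild-Type 1 to 5. Wild-Type 5 was the highest and Wild-Type 2 the lowest of all libraries, so that 2 libraries rich in Ccl21a lay at opposite ends. The fitted difference was -0.26 ± 0.26 on the log2 scale (SE; adjusted p = 0.710 in edgeR).

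Madcam1 (chr10:79664559-79668537, plus strand) was at 1.44, 1.64, 2.94, 2.35, 1.87 and 1.99 CPM in Knockout 1 to 6 and at 1.19, 3.72, 2.10, 2.10 and 1.72 CPM in Wild-Type 1 to 5. Wild-Type 2 was the highest library and Wild-Type 1 the lowest, with all Knockout values between them. The fitted difference was -0.08 ± 0.27 on the log2 scale (SE; adjusted p = 0.927 in edgeR) and changed sign under a correction for transcript length (0.078).

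**Figure D1:**
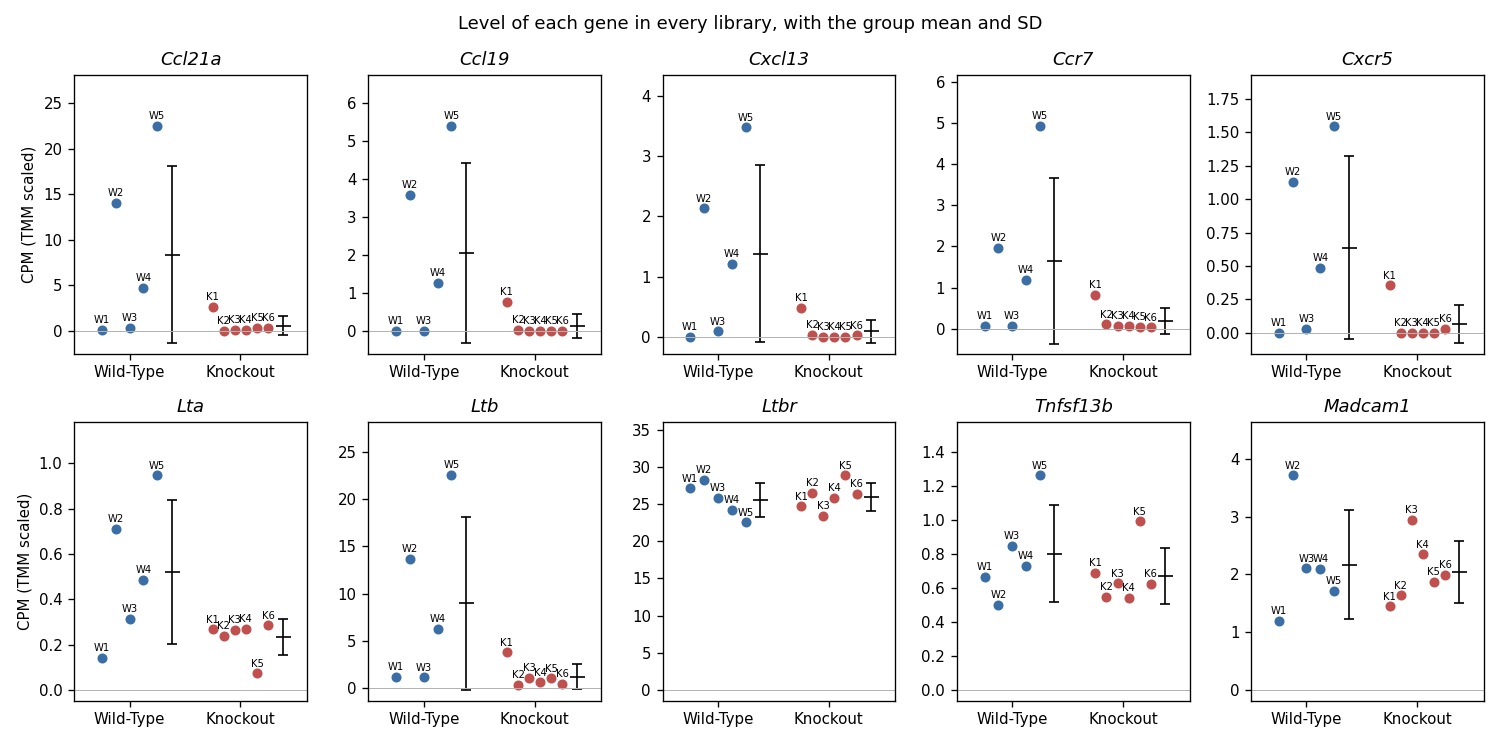
CPM (linear axis) of each gene in every library, with labels K and W for Knockout and Wild-Type replicates and the group mean and SD beside the points. In 6 of the 10 panels the highest points are W5, W2, W4 and K1 in that order, while Ltbr lies between 22.5 and 28.9 CPM in all 11 libraries.

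Of the 5 genes that passed the filter, 0 were called at an adjusted p under 0.05 in edgeR, against 0.055% of all 12716 genes tested (7 genes). By edgeR's unadjusted p-values there were 2 under 0.05, Ccl21a (0.0180) and Ltb (0.00945), against 12.4% of all genes, and DESeq2 also called 0 of them, against 1.15%. Without the filter, 0 of all 10 were called, against 0.04% of 17497 genes, and 7 had an unadjusted p under 0.05, against 10.8%. These 7 include the 5 genes removed by the filter, whose exact permutation p ran from 0.0563 to 0.121. Of the 7, 6 had the same 4 libraries highest, so they are not separate outcomes. Mean CPM was lower in Knockout for 9 of the 10, the exception being Ltbr. Among the 12716 genes tested, 51.7% had a fitted fold change below 0, a different measure over a filtered set. The filter selects on level, so counts over the 5 tested genes describe those 5 and not the whole set. In all 10 genes the groups overlapped, whereas 1.32% of all genes tested had groups that did not.

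**Figure D2:**
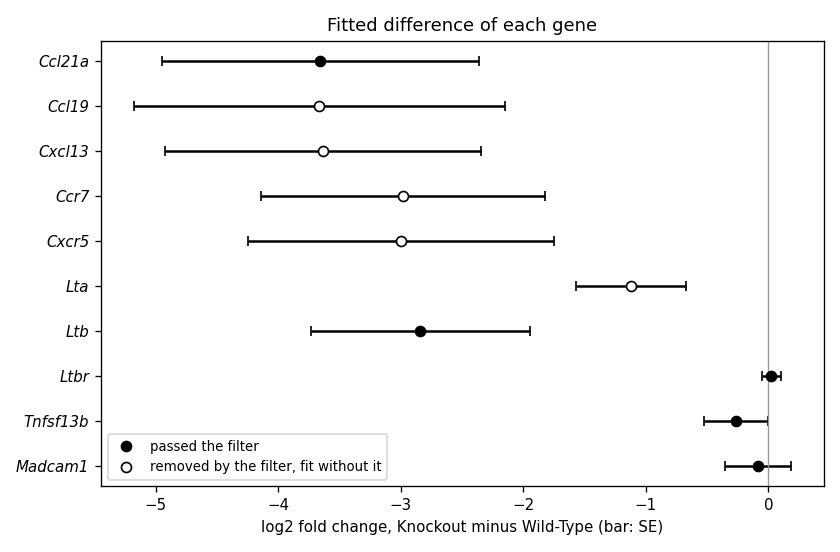
Log2 fold change of Knockout minus Wild-Type (horizontal axis) for each gene, with bars for the SE; filled points passed the low-count filter and open points come from the fit without it. Ccl21a, Ccl19 and Cxcl13 lie near -3.6 with wide bars, and Ltbr lies at 0.02 with a narrow one.

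Of the 10 genes, 6 (Ccl21a, Ccl19, Cxcl13, Ccr7, Cxcr5 and Ltb) had the same 4 libraries highest in the same order, Wild-Type 5, Wild-Type 2, Wild-Type 4 and Knockout 1. These libraries, 3 of 5 Wild-Type and 1 of 6 Knockout, held between 88.4% (Ltb) and 99.7% (Ccl19) of the reads of each of the 6 genes. Over all 17497 genes with at least 1 read, 401 (2.29%) had these 4 libraries highest. After the filter this held for 259 of 12716 genes (2.04%), Ccl21a and Ltb among them. Among the 4 genes outside the pattern, they held 57.4% of the reads of Lta, 45.6% for Madcam1, 45.4% for Tnfsf13b and 33.9% for Ltbr.

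Markers of lymphocytes moved with these genes. The summed level of 9 B cell markers (Ms4a1, Cd79a, Cd79b, Cd22, Pax5, Cd37, Fcer2a, Cr2 and Fcmr) was 89.2 CPM in Wild-Type 5, 65.3 in Wild-Type 2, 21.02 in Wild-Type 4 and 16.4 in Knockout 1, and between 0.991 and 4.81 CPM in the other 7 libraries. By group it ran from 0.991 to 16.4 CPM for Knockout and from 2.35 to 89.2 CPM for Wild-Type. Summed T cell markers were at 10.9 to 40.4 CPM in these 4 libraries and at 1.77 to 4.95 CPM in the others, and 8 of the 10 T cell markers had the same 4 libraries highest. All 9 B cell markers did, but the 4 libraries are also the highest in their sum. None of 5 markers of plasma cells, 5 of lymphatic endothelium, 5 of milk epithelium or 5 of adipocytes had this pattern, and 1 of 6 markers of dendritic cells and macrophages did. The summed lymphatic endothelial markers (Lyve1, Prox1, Flt4, Pdpn and Reln) were at 5.22 to 11.5 CPM in the 4 libraries and at 5.53 to 9.38 CPM in the others. Plasma cell markers (Jchain, Sdc1, Xbp1, Derl3 and Tnfrsf17) summed to 233.2 to 445.2 CPM in the 4 libraries and 136.4 to 302.7 CPM in the others, ranges that overlapped. Between genotypes, 5 B cell markers were tested in edgeR: all 5 had fold changes below 0 (median -2.92), 0 passed the threshold and 5 had an unadjusted p under 0.05, where all genes tested had 51.7% below 0, 0.055% past the threshold and 12.4% with such a p. Of 6 T cell markers tested, all had fold changes below 0 (median -1.39), 0 passed and 2 had an unadjusted p under 0.05. Of 5 adipocyte markers tested, 4 had fold changes above 0 and 1 (Lep) below (median 0.35). Of them 0 passed and 3 had an unadjusted p under 0.05. Their sums, dominated by Cfd, did not overlap between genotypes, while 1.32% of single genes tested had groups that did not. Cfd itself overlapped, at 625.5 to 1227 CPM for Knockout against 360.8 to 656.0 CPM for Wild-Type, as did Adipoq, Plin1, Fabp4 and Lep. All 5 milk protein genes had fold changes below 0 (median -0.24), 0 passed and 0 had an unadjusted p under 0.05. The lists of plasma cells, lymphatic endothelium, lymph node stroma, and dendritic cells and macrophages had genes on both sides of 0, 0 past the threshold and at most 1 with such a p. Pax5, a defining B cell gene, had 0 reads in Knockout 2 to 6 and in Wild-Type 1. The part of lymphocyte content in the differences of the chemokine genes was not tested.

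Without these 4 libraries, 5 Knockout and 2 Wild-Type libraries remained. The log2 fold change of Ccl21a was then -0.20 (edgeR adjusted p = 0.981) and that of Ltb -0.74 (adjusted p = 0.780), against -3.66 and -2.84 with all libraries. Differences in mean CPM were 0.00682 for Ccl19, -0.0346 for Cxcl13, -0.00770 for Ccr7, -0.0100 for Cxcr5 and -0.000791 for Lta. Tnfsf13b (-0.19) kept its sign, and Ltbr (-0.014) and Madcam1 (0.38) took the opposite sign. The 4 libraries were picked after their values were seen, so these values describe the remaining libraries and test nothing. Wild-Type 5 and Knockout 1 each moved the values: the log2 fold change of Ccl21a was -5.35 without Knockout 1 and -2.88 without Wild-Type 5. In the fit without the filter, leaving out Knockout 1 moved Ccl19 from -3.67 to -7.57, Cxcl13 from -3.64 to -6.33, Cxcr5 from -2.999 to -5.90 and Ccr7 from -2.98 to -4.70. The other Knockout libraries had at most 1 read each of Ccl19, Cxcl13 and Cxcr5, so these fitted values depend on the prior count and are no bounds.

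**Figure D3:**
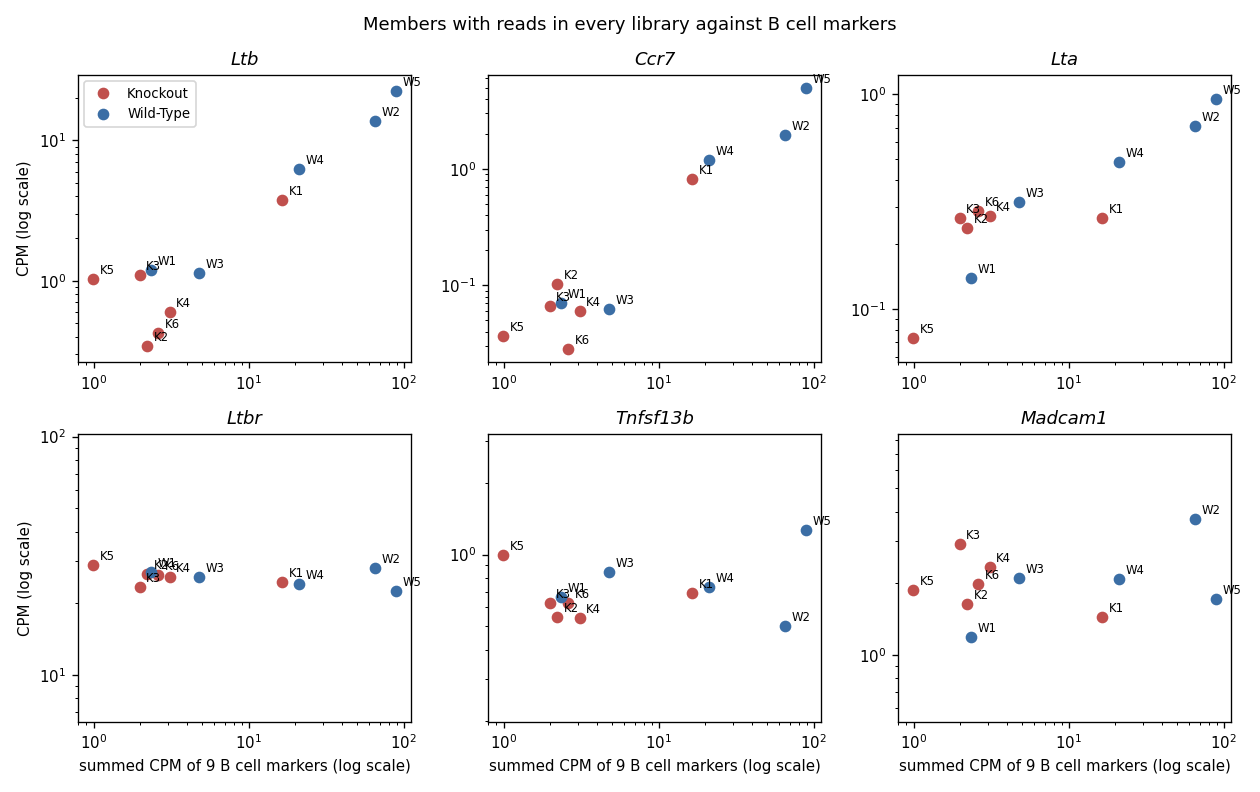
CPM of the 6 genes with reads in every library against the summed CPM of 9 B cell markers, both axes on a log scale, 1 point per library labelled K (Knockout) or W (Wild-Type). Ltb and Ccr7 are highest in the 4 libraries with 16.4 CPM or more of B cell markers, while Ltbr, Tnfsf13b and Madcam1 take like values on both sides.

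The 6 genes kept broadly similar proportions to one another in the 4 libraries. Part of this is built in, because the 6 genes were picked for ranking these libraries in the same order. Of their summed reads, which numbered 399 in Knockout 1, 875 in Wild-Type 2, 500 in Wild-Type 4 and 1721 in Wild-Type 5, Ltb made up 37.4 to 42.4% and Ccl21a 30.1 to 38.5%. Ccl19 contributed 8.4 to 9.83%, Ccr7 5.37 to 9.27%, Cxcl13 5.51 to 8% and Cxcr5 2.56 to 4.01%. In the other 7 libraries, with only 15 to 53 summed reads each, Ltb made up 50 to 87.2%, Ccl21a 0 to 40%, Ccr7 2.63 to 20%, Ccl19 and Cxcl13 0 to 6.67% each and Cxcr5 0 to 3.33%. Shares in these 7 libraries rest on few reads, and those of Ccl21a and Ccr7 spanned their shares in the 4 libraries.

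**Figure D4:**
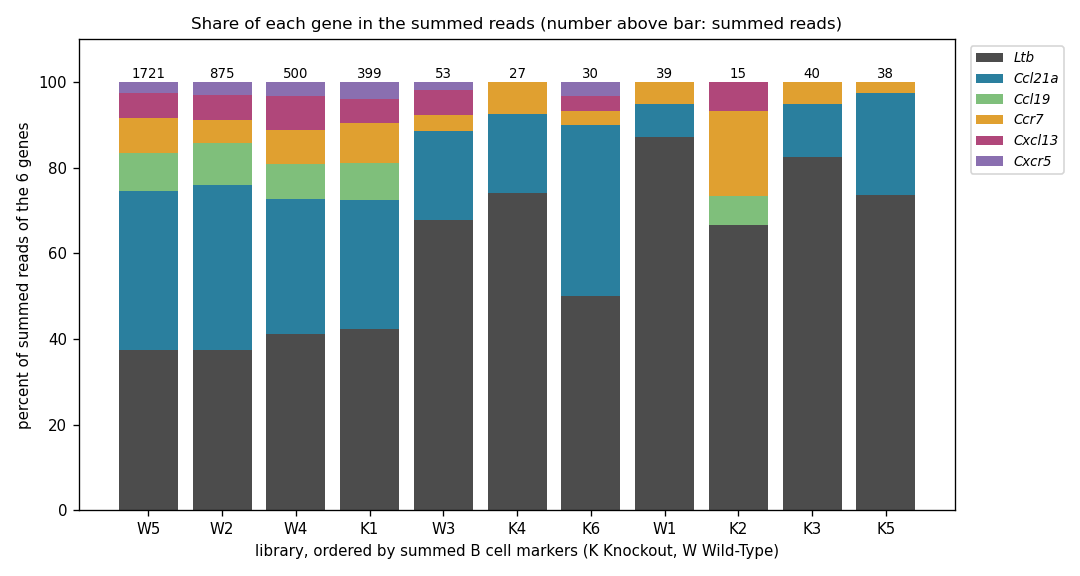
Share of each of 6 genes in their summed reads (vertical axis, percent) for each library, ordered from the highest to the lowest summed B cell markers; the number above a bar is the summed reads. In W5, W2, W4 and K1 the bars have all 6 colours in similar parts, and in the other 7 libraries Ltb fills 50 to 87.2%.

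Levels between genes were compared per length, as TPM of the deposited tables summed per gene. Over all 11 libraries the mean was highest for Ccl21a (11.5 TPM, range 0 to 60.9), then for Ltbr (9.06 TPM, range 7.32 to 11.7), Ccl19 (4.45 TPM), Cxcl13 (3.06 TPM) and Ltb (2.62 TPM). Madcam1 (1.03 TPM), Tnfsf13b (0.415 TPM), Lta (0.396 TPM), Ccr7 (0.350 TPM) and Cxcr5 (0.131 TPM) followed. The order of the means differed between the groups, and part of it rested on single libraries. In the 6 Knockout libraries the mean ± SD was highest for Ltbr (9.82 ± 1.39 TPM), followed by Ccl21a (2.12 ± 3.81 TPM), Madcam1 (1.115 ± 0.182 TPM), Ltb (0.849 ± 0.960 TPM) and Ccl19 (0.814 ± 1.90 TPM). Without Knockout 1 the means of Ccl21a, Ltb and Ccl19 were 0.575, 0.460 and 0.0374 TPM, and Madcam1 (1.13 TPM) came before Ccl21a. Without any 1 of Knockout 2 to 6, Ccl19 came before Ltb. In the 5 Wild-Type libraries Ccl21a (22.7 ± 25.9 TPM) led, followed by Ccl19 (8.82 ± 10.1 TPM), Ltbr (8.16 ± 0.822 TPM), Cxcl13 (6.06 ± 6.31 TPM) and Ltb (4.74 ± 4.82 TPM). Without Wild-Type 5 the means of Ccl21a, Ltbr, Ccl19, Cxcl13 and Ltb in this group were 13.1, 8.32, 5.17, 3.79 and 2.92 TPM, and Ltbr also came before Ccl19 without Wild-Type 2. Over all libraries Ltbr led without Wild-Type 5 (9.22 TPM against 6.53 TPM for Ccl21a) or Wild-Type 2 (9.10 against 8.99 TPM). Each of the 9 neighbouring pairs in the order over all libraries had overlapping ranges. Cxcl13, Ccl19 and Ccl21a are short, with coding sequences of 330, 327 and 402 bases for the listed entries, and the TPM of such short sequences depends on the effective length the quantifier assigned.

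Madcam1, Tnfsf13b and Ltb had reads on more than 1 transcript under the same gene identifier, which was examined after the gene levels had been seen. For Madcam1 the longer of 2 listed coding sequences (1218 against 786 bases) took 48.0, 39.9, 59.0, 54.6, 72.7 and 51.1% of the estimated reads in Knockout 1 to 6 and 58.4, 70.3, 86.7, 67.8 and 62.9% in Wild-Type 1 to 5. The groups overlapped, with 4 of 6 Knockout shares below every Wild-Type share. Means of 54.2 ± 11.1% (SD, n = 6) and 69.2 ± 10.8% (SD, n = 5) gave an exact permutation p of 0.0563, adjusted p = 0.169 over the 3 genes compared. These shares rest on 34 to 89 reads per library, divided between transcripts by the quantifier's estimate. For Tnfsf13b the transcript with a coding length of 930 bases took 94.997 ± 8.34% in Knockout (SD, n = 6) and 85.8 ± 22.6% in Wild-Type (SD, n = 5), with an exact permutation p of 0.606. Wild-Type 2 was the lowest at 48.2%, and 7 of the 11 libraries had all reads of Tnfsf13b on that transcript. For Ltb the transcript of 921 coding bases took 31.1% of 10 reads in Knockout 2, 72.0% of 15 reads in Knockout 6 and all reads in the other 9 libraries (exact permutation p = 0.545).

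**Figure D5:**
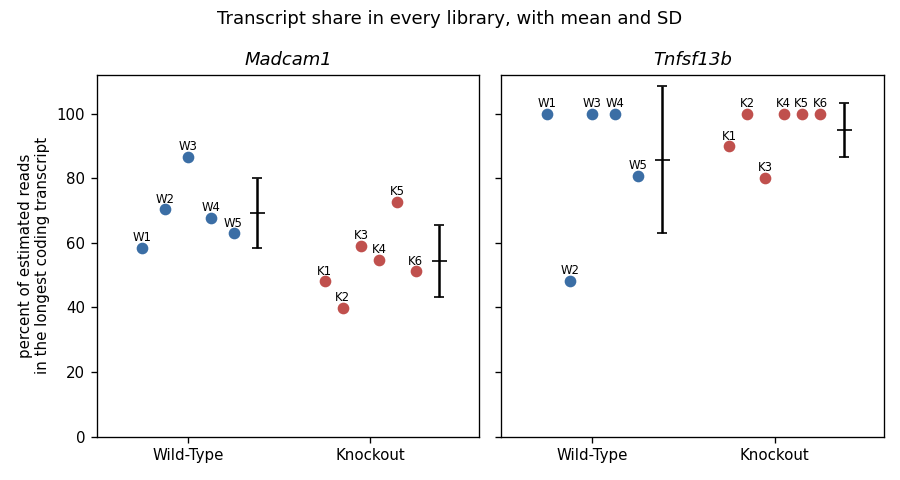
Percent of estimated reads in the longest listed coding transcript of Madcam1 and Tnfsf13b in every library (K Knockout, W Wild-Type), with group mean and SD. Madcam1 shares are 39.9 to 72.7% in Knockout and 58.4 to 86.7% in Wild-Type and overlap.

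Lymphotoxin beta receptor signalling reaches its target genes through NF-kB sites, so the promoters were searched for the general NF-kB pattern GGGNNNNNCC on both strands. No other pattern was searched, so NF-kB sites with other letters are not marked below. RefSeq promoter windows (GRCm38.p6, 250 bases before to 50 after the start) were at hand for 8 of the 10 genes, not for Ccr7 and Cxcr5. These 8 genes have 9 windows, and 6 of the windows, each of another gene, held a match. This compares with 50.8% of 32851 windows of 300 bases, so a match alone did not set the genes apart. Matches that overlap on either strand stand for 1 place. The upstream parts of 3 windows are printed because Ccl21a and Cxcl13 were high in the same libraries, 1 without and 1 with a match, and because Madcam1 has a pair of separate matches and did not share their order of libraries. Capitals mark the matches, and each sequence runs 5′ to 3′ on the gene's strand.
Ccl21a, chr4:42773992-42774241, minus strand: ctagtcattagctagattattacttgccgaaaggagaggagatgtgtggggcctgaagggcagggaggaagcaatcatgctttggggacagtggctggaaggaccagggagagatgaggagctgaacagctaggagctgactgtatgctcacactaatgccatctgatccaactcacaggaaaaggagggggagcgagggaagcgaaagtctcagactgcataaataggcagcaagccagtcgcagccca
Cxcl13, chr5:95956689-95956938, plus strand: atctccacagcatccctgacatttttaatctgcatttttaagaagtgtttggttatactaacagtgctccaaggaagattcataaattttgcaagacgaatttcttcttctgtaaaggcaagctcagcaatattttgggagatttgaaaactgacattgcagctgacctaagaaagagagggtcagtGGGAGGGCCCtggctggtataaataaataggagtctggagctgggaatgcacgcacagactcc
Madcam1, chr10:79664309-79664558, plus strand: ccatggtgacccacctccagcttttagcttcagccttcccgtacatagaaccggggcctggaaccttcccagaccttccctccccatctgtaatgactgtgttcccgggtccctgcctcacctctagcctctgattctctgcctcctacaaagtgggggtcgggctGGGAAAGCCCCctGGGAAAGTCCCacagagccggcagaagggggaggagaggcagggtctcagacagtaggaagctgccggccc
The match GGGAGGGCCC of Cxcl13 starts at -63 from the transcription start, and those of Madcam1 start at -84 (GGGAAAGCCC) and -71 (GGGAAAGTCC). Ltb had matches at -87 (GGAAAGTCCC, the pattern on the other strand) and around -40 (GGGGTCTACC), Lta at -76 (GGGCCTGACC), Ccl19 at -250 (GGGAAGACCC) and Ltbr at -112 (GGCCACCCCC, on the other strand). The 10 bases GGAAAGTCCC were shared by Ltb (at -87) and Madcam1 (at -70), and on either strand they occur in 51 of the 32851 windows (0.155%). This sequence was singled out after the matches were seen. Tnfsf13b and Ccl21a had no match, which says only that these letters are not in these windows.

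The patterns most like those of the tested genes are given by Pearson's r of log2 CPM over the 11 libraries. For Ccl21a they were Cd22, a B cell surface receptor (r = 0.973), Ptprcap (0.963) and Lck, a T cell kinase (0.957), and for Ltb they were Lck (0.963), Arhgap4 (0.962) and Ptprcap (0.960). For Ltbr they were Rcan1 (0.894), Mmp11 (0.890) and Ppp2r5d (0.874), for Madcam1 Nsun4 (0.911), Snapc1 (0.892) and Tmem219 (0.876), and for Tnfsf13b Zc3h11a (0.823), Omp (0.818) and Dpysl2 (0.818). These coefficients are descriptions over 11 shared libraries.

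Around these genes, 44 further genes of chemokine and lymphotoxin signalling, lymphoid tissue induction and homing were listed, and 33 of them were tested. None passed the threshold in edgeR (0 of 33, smallest adjusted p = 0.338) or in DESeq2, against 0.055% and 1.15% of all genes tested, and 8 of 33 had an unadjusted p under 0.05, against 12.4%. In this list 11 fold changes were above and 22 below 0, where 51.7% of all genes lay below 0, with a median log2 fold change of -0.13 against -0.01 for all genes tested. The 4 libraries named above were the highest for 8 of the 44 genes, 4 of them among the 7 homing genes, against 2.29% of all genes with at least 1 read. In each sub-list the gene with the smallest p in each direction is given here.

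Among 14 further chemokine and receptor genes, Cxcr4, the CXCL12 receptor, had a log2 fold change of -1.14 ± 0.44 (SE; adjusted p = 0.350 in edgeR), with 0.698 to 2.46 CPM for Knockout against 1.40 to 7.65 CPM for Wild-Type. Its 4 highest libraries were those of Ccl21a, and without them it was at -0.16. Ackr4, the scavenger receptor that removes CCL19 and CCL21, had a log2 fold change of 0.53 ± 0.20 (SE; adjusted p = 0.346 in edgeR), with 1.98 to 3.07 CPM for Knockout against 1.13 to 2.49 CPM for Wild-Type. Wild-Type 2, high in Ccl21a, was the lowest of all libraries for Ackr4. The other libraries high in Ccl21a did not follow. Wild-Type 4 (1.58 CPM), Wild-Type 5 (1.93 CPM) and Knockout 1 (2.09 CPM) were above Wild-Type 3 (1.48 CPM), which was low in Ccl21a. Among 11 further TNF family genes, Tnfrsf13b, which encodes the BAFF and APRIL receptor TACI, was at -0.82 ± 0.33 (SE; adjusted p = 0.358 in edgeR) and Tnfrsf1a, a TNF receptor, at 0.17 ± 0.12 (SE; adjusted p = 0.573 in edgeR) on the log2 scale. Without the 4 libraries Tnfrsf13b was at -0.24.

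Of the 8 non-canonical NF-kB genes, through which the lymphotoxin beta receptor acts, all were tested and 4 lay on each side of 0. Chuk, the kinase IKK alpha of this pathway, had a log2 fold change of 0.24 ± 0.10 (SE; adjusted p = 0.383 in edgeR), and Birc3 one of -0.21 ± 0.15 (SE; adjusted p = 0.593 in edgeR). None of the 8 had the 4 libraries highest. Among the 4 genes of lymphoid tissue induction, Il7r, the IL-7 receptor of lymphocytes and inducer cells, was at -1.43 ± 0.54 (SE; adjusted p = 0.341 in edgeR) and Id2, which inducer cells need, at 0.59 ± 0.25 (SE; adjusted p = 0.372 in edgeR) on the log2 scale. Il7r also had the 4 libraries highest and was at -0.27 without them, and Id2 was then at 0.92.

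Among the homing genes, Itgb7 encodes the integrin chain that pairs with alpha4 to bind MAdCAM-1. Itgb7 was at 4.15, 2.25, 2.05, 2.04, 1.03 and 2.13 CPM in Knockout 1 to 6 and at 2.00, 10.2, 1.57, 4.62 and 19.8 CPM in Wild-Type 1 to 5. Its 4 highest libraries were those of Ccl21a, whereas those of its ligand gene Madcam1 were Wild-Type 2, Knockout 3, Knockout 4 and Wild-Type 3. The log2 fold change of Itgb7 was -1.73 ± 0.63 (SE; adjusted p = 0.338 in edgeR), and without the 4 libraries it was 0.10. Vcam1, an adhesion molecule of endothelium and stroma, had a log2 fold change of 0.32 ± 0.19 (SE; adjusted p = 0.511 in edgeR). Chst4 and Fut7, genes of 2 enzymes that modify the glycans of high endothelial venules, did not pass the filter. They were chosen for mention after their values were seen: Chst4 was at 0 to 0.0888 CPM for Knockout against 0 to 0.710 CPM for Wild-Type, and Fut7 at 0 to 0.0888 against 0.0314 to 0.632 CPM.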

How the data were processed

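RNA-seq of 11 inguinal mammary gland libraries (6 Knockout, 5 Wild-Type) was used. Per the submitters' processing notes, Salmon 1.3.0, DESeq2 1.28.1 and the build GRCm38.p6 were used; the labels' protocols name a PureLink RNA kit and NEBNext Ultra II Directional libraries. The deposited transcript tables hold, per the file headers, estimated counts (expected counts, not whole), TPM and effective length. They list mostly coding sequences, so reads in other parts of a transcript were hardly counted. The authors' deposited gene table holds normalized values, taken as a signal whose scale is theirs; it served only for an alternative.

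Transcripts were assigned to genes with GENCODE M21 (752 of 58204 unmatched, 0.195 to 0.265% of reads, left out), and gene sums of the estimated counts were rounded. For Ccl19 and Ccl21a the identifier with the most reads was used. The main test was edgeR 4.0.16 (quasi-likelihood, robust, TMM, filterByExpr with a minimum count of 10, genotype only, Benjamini-Hochberg over 12716 genes, R 4.3.3). Depth was 25817975 to 37894237 estimated reads, and the common biological coefficient of variation was 24.1%. Genes removed by the filter had exact two-sided permutation tests of CPM (SciPy 1.17.1). Likeness used log2 CPM with a prior count of 2. The fit was tested on simulated data. The 10 genes, the pathway and the marker lists were chosen with earlier results of these data known; 1 marker gene and 1 pathway gene of these lists are not reported here and enter no sum or count. Named genes are the 10 members, the copies, the gene with the smallest p in each direction of each sub-list, and the 3 most alike genes per tested member; Pax5, Chst4 and Fut7 were named after their values were seen. The marker list for lymph node stroma (Ccl19, Ccl21a, Cxcl13, Madcam1, Clu and Fdcsp, the last not found) was dominated by Clu, with sums of 1001 to 2197 CPM for Knockout against 1243 to 1664 CPM for Wild-Type; the list for dendritic cells and macrophages summed to 29.9 to 46.9 CPM and 32.3 to 53.7 CPM. Alternatives were DESeq2 1.42.0, RLE and upper quartile scaling, no filter, no robust estimation, a transcript length offset, copies summed, a replicate block, limma 3.58.1 on log2(authors' value + 1), leaving out each library and, chosen after seeing the data, leaving out 4 libraries.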

Additional observations from a re-analysis of the deposited data

Results flagged for a closer look

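Within the groups, 34 sets of values were checked for a library far from the others, and 10 had one; chance gives about 1 in 20, or 1.7 sets, and the sets share libraries and are not independent. Knockout 1 stood above the other 5 Knockout libraries for 6 of the 10 genes: Ccl21a (2.66 CPM, others 0 to 0.341), Ccl19 (0.777 CPM, others 0 to 0.0341), Cxcl13 (0.489 CPM, others 0 to 0.0341), Ccr7 (0.822 CPM, others 0.0285 to 0.102), Cxcr5 (0.355 CPM, others 0 to 0.0285) and Ltb (3.75 CPM, others 0.341 to 1.09). It also stood above them in the summed B cell markers (16.4 CPM, others 0.991 to 3.10) and T cell markers (11.1 CPM, others 1.77 to 4.95). Knockout 5 stood apart for Lta and Tnfsf13b: it was the lowest Knockout library for Lta (0.0734 CPM, others 0.239 to 0.285) and the highest for Tnfsf13b (0.991 CPM, others 0.541 to 0.688). Both flags rest on few reads. Knockout 5 had 2 reads of Lta, against 7 to 12 in the other Knockout libraries, and 27 of Tnfsf13b, against 16 to 31.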

How the results depend on the processing

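The number of genes past the threshold among all genes was 7, and 146 with DESeq2, 0 with the replicate block, 0 without the 4 libraries highest in B cell markers, and 0 to 28 when each library was left out in turn (0 without Knockout 3 or 6, 28 without Knockout 2); the cause was not tested. Of the members and pathway genes that could be tested (5 of 10 and 33 of 44 after the filter), 0 passed the threshold in every setting run. Same-numbered libraries did not deviate together (correlations of deviations from the group means -0.02, -0.09, 0.19, -0.22 and -0.20; 1 library correlated best with its own number), so the replicate numbers are not treated as pairs; with the replicate block Ccl21a was at -3.85 (adjusted p = 0.690) and Ltb at -2.41 (adjusted p = 0.686). The sign turned for Ccl19 without the 4 libraries (CPM difference 0.00682), for Ltbr without Knockout 5 (-0.0057), Wild-Type 5 (-0.022) or the 4 libraries (-0.014), and for Madcam1 with the length offset (0.078), with limma on the authors' values (0.13), without Knockout 1 (0.0089), Wild-Type 2 (0.19) or the 4 libraries (0.38); with each library left out in turn, Ltbr ranged from -0.022 to 0.058 and Madcam1 from -0.24 to 0.19. Ccl21a kept its sign under all settings run (-5.35 to -0.20, adjusted p 0.141 to 0.981), as did Ltb (-3.68 to -0.74, adjusted p 0.0658 to 0.780) and Tnfsf13b (-0.40 to -0.05). Copies summed gave -3.71 for Ccl21a. The exact permutation p crossed 0.05 when 1 library was left out for 4 of the 5 genes removed by the filter: Cxcl13 and Cxcr5 without Knockout 1 (0.0476 each) or Wild-Type 1 (0.0190 each), Ccr7 without Wild-Type 1 (0.0381) or 3 (0.0286), and Lta without Wild-Type 1 (0.00952). That of Ccl19 did not (0.0667 to 0.267). Ccl19, Cxcl13 and Cxcr5 had 0 reads in 4 to 6 libraries each, which limits the precision of their values; for Ccl19 these include Wild-Type 3, the deepest library.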
